A study of Mus musculus with 12 samples.

Results

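The genes of the microRNA (miRNA) processing machinery were followed in mouse liver with and without the clock gene Bmal1. They are 7 genes, Drosha, Dgcr8, Dicer1, Xpo5, Tarbp2, Ddx5 and Ddx17, out of 22322 gene symbols in the deposited tables. The genes were chosen by name for their role, though earlier results of these data were known. They take up 18 of 46585 transcript rows, and the row with the highest mean over all libraries stands for each gene. All 7 passed the filter on low values that left 10799 genes for testing.

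Livers came from mice labelled C57BL/6 (C57BL/6J in the study's methods) and 8 weeks old, 3 libraries in each of 4 groups: wild type (WT) and knockout (KO), each at circadian time 0 (CT0) and 12 (CT12). In the study's methods, WT mice are Bmal1 flox/flox and no Cre is named for them. KO mice carry the same floxed gene, with loxP sites around exon 8, and a CRE recombinase under a liver-specific promoter that is not named, so effects of the recombinase and of losing Bmal1 cannot be told apart. All mice were male and spent their last 2 days in darkness. The methods name 3 mice per genotype and time and the treatment label 2, so whether each library is a mouse of its own is not settled. P-values measure only the spread between these libraries.

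MiRNAs are cut from long primary transcripts. In the nucleus the RNase Drosha, held by its RNA-binding partner Dgcr8, frees a hairpin from the primary transcript, and the helicases Ddx5 and Ddx17 assist it on part of the primary transcripts. Exportin 5, the product of Xpo5, carries the hairpin to the cytoplasm, where the RNase Dicer1 with its double-stranded RNA-binding partner Tarbp2 cuts it to the duplex that is loaded on Argonaute proteins. Mature miRNAs were not measured in these libraries, which report the mRNAs of the machinery.

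3 of the 7 genes hold miRNA hairpins in their own bodies, and these are shown because the machinery cuts such hairpins. They were located by matching RefSeq hairpins (GRCm38.p6 table) to the NCBIM37 genome. Of these, the pair in Dgcr8 is known to be cut by Drosha and Dgcr8 themselves. Sequences run 5′ to 3′ with the seed, bases 2 to 8, in capitals.
miR-1306-5p (Dgcr8): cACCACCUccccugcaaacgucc
miR-1306-3p (Dgcr8): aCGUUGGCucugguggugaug
miR-3618-5p (Dgcr8): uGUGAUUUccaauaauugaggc
miR-3618-3p (Dgcr8): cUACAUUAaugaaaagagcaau
miR-693-5p (Xpo5): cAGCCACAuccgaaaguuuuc
miR-693-3p (Xpo5): gCAGCUUUcagauguggcuguaa
miR-3064-5p (Ddx5): uCUGGCUGuuguggugugcaaa
miR-3064-3p (Ddx5): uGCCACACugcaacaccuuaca
The miR-1306 hairpin lies at chr16:18284332-18284410 on the minus strand, in an exon of all 3 Dgcr8 models that reach it and within the coding sequence of 2. The miR-3618 hairpin lies at chr16:18284643-18284730, in an exon outside the coding sequence of both models. The miR-693 hairpin at chr17:46368480-46368568 is in an intron of Xpo5. The miR-3064 hairpin at chr11:106644007-106644073 is exonic in 1 of the 5 Ddx5 models that span it and lies beyond the end of the Ddx5 transcript used here. No seed is shared among the 8 sequences.

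The values are RPKM, reads scaled to transcript length in kilobases and to library depth, so levels of different genes are compared per length. Recovered depth was 11460000 to 19020000 reads per library. All 6 hepatocyte markers were above a mean of 1 RPKM. Their summed level was 36949 to 49409 RPKM over the WT libraries and 24768 to 33546 RPKM over the KO libraries. Arntl, the gene of BMAL1, had 15.7 to 16.3 RPKM in WT at CT0, 0.680 to 1.26 in WT at CT12, 5.73 to 7.45 in KO at CT0 and 3.59 to 4.37 in KO at CT12. KO was thus lower than WT at CT0 and higher at CT12, over a whole transcript that does not single out the deleted exon.

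Levels of the 7 genes spanned a wide range and kept much the same order in every group. Averaged over the 12 libraries, Ddx5 had 145 RPKM, Ddx17 28.5, Xpo5 9.06, Tarbp2 7.14, Dicer1 6.02, Dgcr8 3.30 and Drosha 2.69 RPKM. Over all libraries Ddx5 and Ddx17 stood apart from each other and from the rest, whereas the ranges of Xpo5, Tarbp2 and Dicer1 overlapped from neighbour to neighbour, as did those of Dgcr8 and Drosha. The nuclear RNase and its partner were therefore the lowest of the genes and the helicases the highest. The order of Tarbp2 and Dicer1 depended on the transcript, since with the longest transcript of each gene Dicer1 had 6.02 and Tarbp2 4.52 RPKM.

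**Figure D1:**
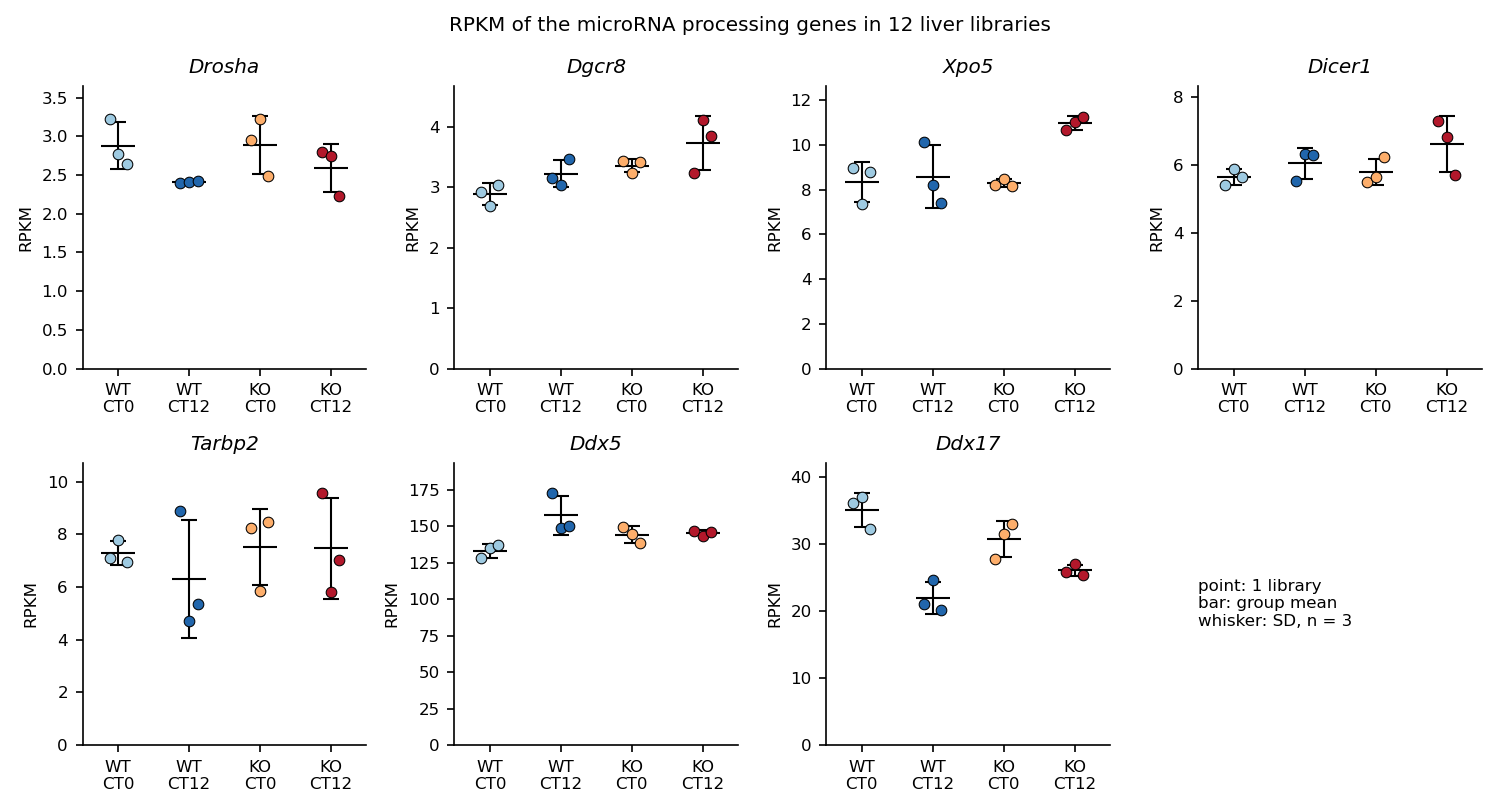
RPKM (y axis, from 0) of the 7 genes in each library, by genotype and circadian time on the x axis, with points for libraries, bars for group means and whiskers for the SD of 3. Ddx17 lies at 32.3 to 37.1 RPKM in WT at CT0 and at 20.2 to 24.6 in WT at CT12, while most other groups of points overlap.

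1 of the 7 genes was called as changed, and the others are not shown to be unchanged. Ddx17 fell from CT0 to CT12 in WT, and also over both genotypes, and it was the only member called in any of the 7 comparisons. A gene was called at an adjusted p under 0.05 by limma with Benjamini-Hochberg adjustment over the 10799 genes. The background is the share of those genes called. It was 11.6% for CT12 against CT0 in WT, where 1 of the 7 members was called, and 16.6% for time over both genotypes, where 1 was called. No member was called in KO between times (background 2.43%), between genotypes at CT0 (1.86%), at CT12 (10.5%) or over both times (11.5%), or in the interaction of genotype and time (1.49%).

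At an unadjusted p under 0.05 the counts of members were 2 for time in WT (background 26.9%), 2 for time in KO (19.9%), 3 for time over both genotypes (31.9%), 0 for genotype at CT0 (14.2%), 2 for genotype at CT12 (24.9%), 1 for genotype over both times (25.4%) and 1 for the interaction (12.3%). Groups of 3 did not overlap for 4 members between times in WT (background 34.1%), 2 between times in KO (23.2%), 2 between genotypes at CT0 (20.6%) and 3 between genotypes at CT12 (28.8%). With 7 genes, each of these counts differs from its background share by few members.

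**Figure D2:**
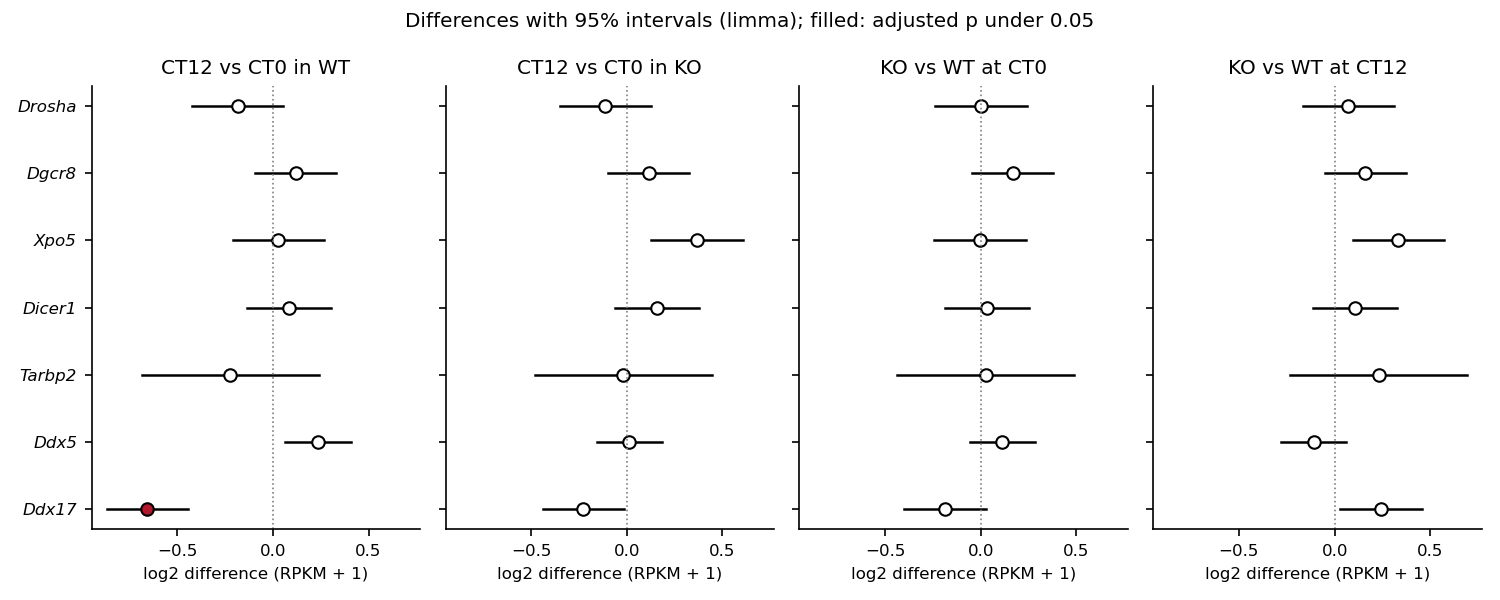
Difference in log2(RPKM + 1) on the x axis for each gene on the y axis, for the 4 comparisons between single groups (1 panel each), with 95% intervals from limma and filled points for an adjusted p under 0.05. The only filled point in these 4 panels is Ddx17 between CT12 and CT0 in WT, at -0.66.

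The nuclear step comes first in the pathway. Drosha (chr15:12763584-12864877, plus strand, NCBIM37) had 3.23, 2.78 and 2.64 RPKM in WT at CT0 and 2.40, 2.41 and 2.42 RPKM in WT at CT12. The KO libraries had 2.95, 3.22 and 2.49 RPKM at CT0 and 2.80, 2.75 and 2.23 RPKM at CT12. The WT groups did not overlap, with the CT12 libraries below the others, while the KO groups did. The difference between times in WT was -0.18 on the log2 scale (SE 0.11, adjusted p = 0.313), and between genotypes at CT12 it was 0.071 (95% interval -0.17 to 0.31).

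Dgcr8 (chr16:18254041-18289339, minus strand), whose protein recognises the hairpin, had 2.93, 2.69 and 3.04 RPKM in WT at CT0 and 3.16, 3.04 and 3.47 RPKM in WT at CT12. KO values were 3.43, 3.24 and 3.41 RPKM at CT0 and 3.24, 4.11 and 3.85 RPKM at CT12. At CT0 all 3 KO libraries lay above all 3 WT libraries, and at CT12 the groups overlapped. Over both times the genotypes differed by 0.16 on the log2 scale (SE 0.069, unadjusted p = 0.0351, adjusted p = 0.157), which did not pass. Trmt2a, a gene on the opposite strand, shares 825 bases, or 19.1%, of the Dgcr8 transcript, and the library kit does not keep strand, so reads of the pair cannot be told apart there.

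The ratio of Drosha to Dgcr8 within a library is free of its depth. Its mean was 1.0 ± 0.12 (SD, n = 3) in WT at CT0, 0.750 ± 0.048 in WT at CT12, 0.861 ± 0.13 in KO at CT0 and 0.704 ± 0.14 in KO at CT12. The groups of WT libraries did not overlap between times. Between times the log2 ratio differed by -0.36 (two-sided exact permutation test within genotype, 400 arrangements, p = 0.025, adjusted over 6 ratio tests 0.075), and between genotypes by -0.16 (exact permutation p = 0.19, adjusted p = 0.285). Without KO CT12 replicate 1 the difference between times passed, at -0.43 (exact permutation, adjusted p = 0.045, with 0.045 to 0.165 over all omissions).

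Ddx5 and Ddx17 are closely related DEAD-box RNA helicases that work in RNA processing and as cofactors of transcription. Ddx17 (chr15:79358137-79377171, minus strand, 1 transcript of 4761 bases) had 36.1, 37.1 and 32.3 RPKM in WT at CT0 and 21.1, 24.6 and 20.2 RPKM in WT at CT12. Among the KO libraries it had 27.9, 31.5 and 33.0 RPKM at CT0 and 25.8, 27.1 and 25.5 RPKM at CT12. Every CT12 library lay below every CT0 library of its genotype, and the KO means, 30.8 ± 2.6 and 26.1 ± 0.85 RPKM (SD, n = 3), lay between the WT means of 35.2 ± 2.6 and 22.0 ± 2.4 RPKM.

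Ddx17 fell by 0.66 on the log2 scale in WT (SE 0.098, 95% interval -0.87 to -0.44, limma adjusted p = 0.00134), or to 0.634 times the CT0 level of RPKM + 1. In KO the difference between times was -0.23 (SE 0.098, unadjusted p = 0.0386, adjusted p = 0.223) and did not pass. The interaction, which tests whether the difference between times depends on genotype, was 0.43 (SE 0.14, unadjusted p = 0.0090, adjusted p = 0.199), so the time difference was not shown to differ between genotypes. Over both genotypes the difference was -0.44 (SE 0.069, adjusted p = 0.00162). Between genotypes, KO differed from WT by -0.19 at CT0 (adjusted p = 0.424) and by 0.24 at CT12 (adjusted p = 0.143), where the groups did not overlap and KO was the higher.

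The call for Ddx17 in WT was kept when any 1 of the 12 libraries was left out, with differences from -0.74 to -0.60 and adjusted p from 9.56e-04 to 0.00973. The Kdelr3 gene of the opposite strand shares 33 bases, or 0.693%, of the Ddx17 transcript.

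Markers of most other cell types and depth were lower at CT12 in WT, as were some of the markers in KO. The summed level of 4 endothelial markers was 46.9 to 57.4 RPKM in WT at CT0 and 34.7 to 36.5 in WT at CT12, that of 4 stellate markers was 118 to 155 and 87.8 to 102 RPKM, that of 6 Kupffer cell markers 140 to 186 and 87.6 to 134 RPKM, that of 4 lymphocyte markers 5.76 to 6.52 and 3.60 to 5.01 RPKM, and that of 3 cholangiocyte markers 2.0 to 2.79 and 0.546 to 1.97 RPKM. These sums did not overlap between times. The sum of 2 erythroid markers was 83.2 to 231 and 46.1 to 108 RPKM, with overlap. None of these markers was at 0 throughout. A mean of 1 RPKM or above was reached by 0 of the 3 cholangiocyte, 1 of the 4 lymphocyte and 3 of the 4 stellate markers. The hepatocyte sum in WT was 44286 to 49409 RPKM at CT0 and 36949 to 45401 at CT12, with overlap. In KO the stellate sum was 144 to 174 RPKM at CT0 and 111 to 142 at CT12. The KO lymphocyte sum was 5.82 to 6.49 and 3.52 to 5.70 RPKM, and the cholangiocyte sum 1.71 to 4.59 and 0.547 to 1.64. The KO hepatocyte sum was 28486 to 33546 and 24768 to 28377 RPKM. These KO sums did not overlap. The endothelial and Kupffer cell sums overlapped in KO, and the erythroid sum was higher at CT12. Recovered depth was 16900000 to 19020000 reads in WT at CT0 and 13410000 to 16130000 in WT at CT12. In KO it was 11460000 to 14900000 reads at CT0, below every WT library of that time, and 13240000 to 14420000 at CT12. The part of markers and depth in the differences between times or genotypes was not tested. In bulk liver fewer cells of a type and less RNA per cell cannot be told apart.

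The sequence before the start of Ddx17 is printed because it is the member that was called. The 250 bases at chr15:79377172-79377421 (NCBIM37, gene strand; sequence from the RefSeq GRCm38.p6 table) end at the base before the start of the transcript used. The capitals mark a GC box, GGGCGG, a site of the Sp factors.
Ddx17 upstream: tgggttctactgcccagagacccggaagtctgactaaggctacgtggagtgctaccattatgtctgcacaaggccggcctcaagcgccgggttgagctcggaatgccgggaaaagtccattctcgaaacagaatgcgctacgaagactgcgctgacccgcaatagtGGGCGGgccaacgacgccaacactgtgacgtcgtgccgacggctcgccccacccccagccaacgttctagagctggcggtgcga
Clock motifs were searched on both strands in the 10 windows of the 7 genes, each 250 bases before to 50 after a start. The E-box CACGTG, bound by BMAL1 with CLOCK, was in 1 window, a Ddx5 one, against 7.15% of all 32851 windows. The half-site AGGTCA, only a part of the site of ROR and REV-ERB receptors, was in 2 windows, both of Ddx5, against 16.3% of all. The bases beside it were not searched. The D-box TTATGTAA was in none (0.938% of all), and the cAMP response element TGACGTCA in none (1.79%). Of the general elements, GGGCGG was in 6 windows (35.7% of all), CCAAT in 5 (37.4%) and TATAAA in 2 (13.6%). None of these motifs is part of another.

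Ddx5 (chr11:106646810-106650499, minus strand, a transcript of 861 bases) had 128, 135 and 137 RPKM in WT at CT0 and 173, 149 and 150 RPKM in WT at CT12. The KO libraries had 149, 145 and 138 RPKM at CT0 and 147, 144 and 146 RPKM at CT12. In WT every CT12 library lay above every CT0 library, and in KO the groups overlapped. The difference between times in WT was 0.24 (SE 0.078, 95% interval 0.066 to 0.41, adjusted p = 0.0726) and in KO 0.014 (95% interval -0.16 to 0.18). The WT difference passed under quantile normalization, at 0.27 (adjusted p = 0.0283), and under median centring, at 0.30 (adjusted p = 0.0225), and adjusted p ran up to 0.121 over the alternatives other than omissions.

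Between genotypes, all KO libraries of Ddx5 lay above all WT libraries at CT0 and below them at CT12. The differences were 0.11 (SE 0.078, adjusted p = 0.573) and -0.11 (adjusted p = 0.434), and the interaction was -0.22 (SE 0.11, adjusted p = 0.444), so none passed. The 4 Ddx5 transcripts gave differences between times in WT from 0.22 to 0.26, with adjusted p from 0.0632 to 0.0852. The treatment of reads that fit several transcripts is not given in the sources used here, so these values may share reads. The E-box of Ddx5 lies at chr11:106650246-106650251, 30 bases before an inner start and in no annotated Ddx5 exon. It is shown in capitals with 10 bases on each side.
Ddx5 E-box: tgggtccgatCACGTGatgaggccaa

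In WT, Ddx17 was lower and Ddx5 higher in every library at CT12 than at CT0, and their ratio sets this out. It was 3.54, 3.63 and 4.25 in WT at CT0 and 8.19, 6.05 and 7.44 in WT at CT12. The KO libraries gave ratios of 5.36, 4.59 and 4.19 at CT0, against 5.70, 5.30 and 5.73 at CT12. The WT libraries did not overlap between times, and the KO libraries at CT0 reached 5.36 against a lowest CT12 value of 5.30. Between times the log2 ratio differed by 0.58 over both genotypes (two-sided exact permutation test, p = 0.01, adjusted p = 0.06), which did not pass, and between genotypes by -0.029 (exact permutation p = 0.835). With RPKM summed over all transcripts of each gene the difference between times was 0.60 and passed (exact permutation, adjusted p = 0.03), while omissions of 1 library gave adjusted p from 0.03 to 0.09.

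**Figure D3:**
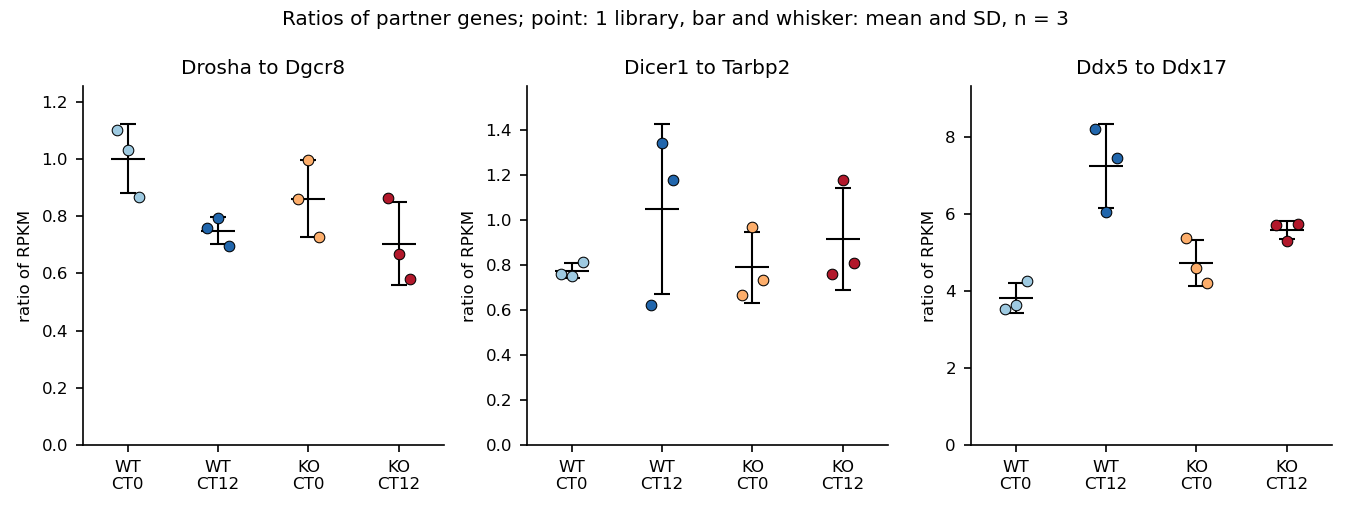
Ratio of RPKM (y axis, from 0) of Drosha to Dgcr8, Dicer1 to Tarbp2 and Ddx5 to Ddx17 in each library, by genotype and time on the x axis, with bars and whiskers for the mean and SD of 3. The ratio of Ddx5 to Ddx17 has a mean of 3.81 in WT at CT0 and 7.23 in WT at CT12, with 4.72 and 5.57 in KO.

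Export is the next step. Xpo5 (chr17:46339804-46379248, plus strand) had 8.96, 7.34 and 8.78 RPKM in WT at CT0 and 10.1, 8.23 and 7.40 RPKM in WT at CT12. KO values were 8.23, 8.50 and 8.16 RPKM at CT0 and 10.7, 11.0 and 11.3 RPKM at CT12. The 3 KO libraries at CT12 lay above the other 9 libraries. KO differed from WT at CT12 by 0.33 (SE 0.11, 95% interval 0.094 to 0.57, adjusted p = 0.0782), and CT12 from CT0 in KO by 0.37 (SE 0.11, 95% interval 0.13 to 0.61, adjusted p = 0.101). Neither passed.

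Leaving out 1 library moved the first of these in either direction. Without WT CT12 replicate 1, the highest WT library at 10.1 RPKM, the difference between KO and WT at CT12 was 0.45 (adjusted p = 0.0242) and passed, and over all 12 omissions it ran from 0.24 to 0.45 with adjusted p from 0.0242 to 0.268. In WT the difference between times was 0.029 (95% interval -0.21 to 0.27). The interaction was 0.34 (SE 0.16, unadjusted p = 0.0501, adjusted p = 0.407).

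The cytoplasmic step is cut by Dicer1 (chr12:105925952-105990162, minus strand), which had 5.39, 5.87 and 5.65 RPKM in WT at CT0 and 5.52, 6.30 and 6.30 RPKM in WT at CT12. The KO libraries had 5.50, 5.65 and 6.23 RPKM at CT0 and 7.29, 6.82 and 5.69 RPKM at CT12. The groups overlapped in all 4 comparisons. Differences ran from 0.031 for genotype at CT0 to 0.16 for time in KO, and the widest 95% limits among the 4 were -0.19 and 0.38.

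Tarbp2 (chr15:102349233-102353333, plus strand), the partner of Dicer1, had 7.11, 7.80 and 6.96 RPKM in WT at CT0 and 8.88, 4.70 and 5.34 RPKM in WT at CT12. Among the KO libraries it had 8.24, 5.84 and 8.48 RPKM at CT0 and 9.58, 5.79 and 7.02 RPKM at CT12. It had the widest spread among libraries of a group, an SD of 35.7% of the mean in WT at CT12, on a transcript of 782 bases that held 54 to 116 reads. The difference between times in WT was -0.22 with a 95% interval from -0.69 to 0.24, which holds differences of either sign. The ratio of Dicer1 to Tarbp2 differed by 0.28 on the log2 scale between times (exact permutation p = 0.19), a value that omission of 1 library moved from 0.18 to 0.45, and by -0.067 between genotypes (exact permutation p = 0.78).

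Besides Ddx17, the 6 other genes had differences between -0.22 and 0.37 on the log2 scale in the 4 comparisons of single groups. Over both times, KO differed from WT by 0.0019 to 0.16 among the 6, with 95% limits from -0.20 to 0.45. In a fit to all transcripts, the Ddx17 transcript was called in WT and over both genotypes, and none of the other 17 was called in any comparison. The share of all transcripts called in that fit is not given here. Transcripts of the same gene may share reads, so the 18 are not separate outcomes.

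**Figure D4:**
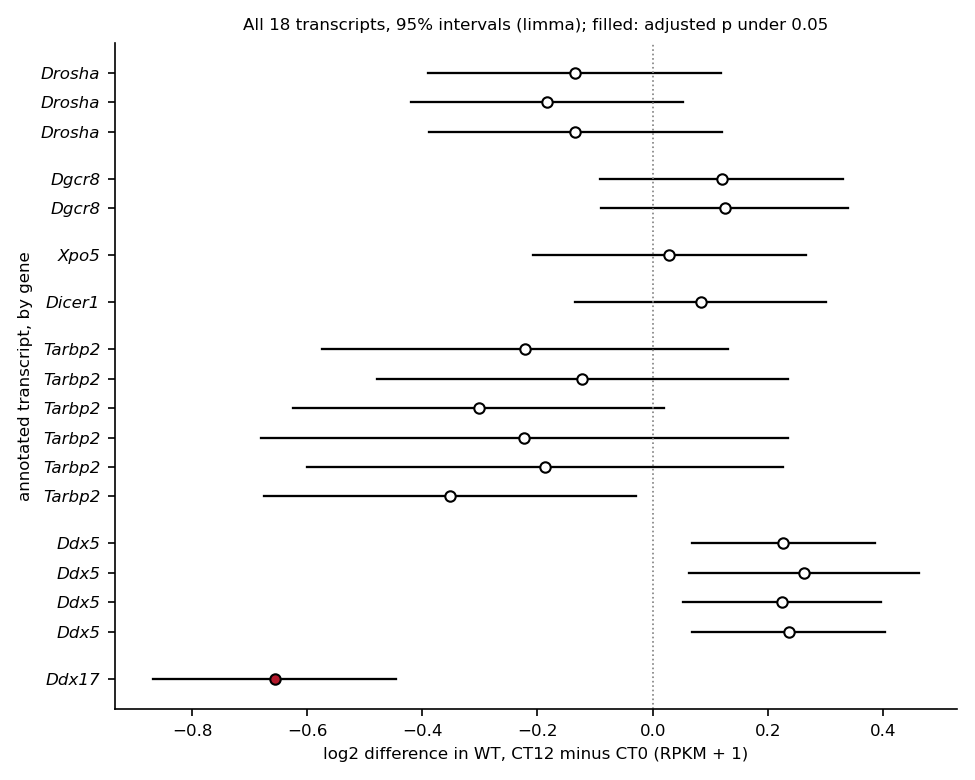
Difference in log2(RPKM + 1) between CT12 and CT0 in WT (x axis) for each of the 18 transcripts (y axis, grouped by gene), with 95% intervals from limma fitted to all transcripts and filled points for an adjusted p under 0.05. The 4 Ddx5 transcripts lie between 0.22 and 0.26 and the 6 Tarbp2 transcripts between -0.35 and -0.12, while the Ddx17 transcript lies at -0.66.

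The genes with the pattern most like that of Ddx17 were found by Pearson's r of log2(RPKM + 1) over the 12 libraries, which share their depth and group structure, so the r values are a description. They were Ppib, an endoplasmic reticulum cyclophilin (r = 0.961), Mllt4, which encodes the cell junction protein afadin (r = 0.953), and Atxn1l, a paralogue of the ataxin gene Atxn1 (r = 0.950). Since they were chosen on the same 12 libraries, their differences between times in WT, -0.43, -0.38 and -0.25 in this order, are given with no test.

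Around the core machinery, 22 processing partners were listed, proteins that bind, edit, modify or degrade miRNA precursors or serve their export, and 20 were tested. In WT 2 fell between times and none rose, which is 10% of the list beside 11.6% of all tested genes, with a list median of -0.039 beside -0.068 over all tested genes. Tardbp, whose protein TDP-43 binds Drosha and precursors, fell from 36.5 ± 0.59 to 24.4 ± 3.5 RPKM (SD, n = 3), by 0.57 on the log2 scale (adjusted p = 0.00624). Smad3, a signal transducer of TGF-beta that joins Drosha at some primary transcripts, fell by 0.73 (adjusted p = 0.0496). Over both genotypes 1 of the 20, Tardbp, fell, beside 16.6% of all tested genes called (difference -0.41, adjusted p = 0.00479).

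Prkra, the other double-stranded RNA-binding partner of Dicer1, was the 1 processing partner of 20 called between genotypes, beside 10.5% of all tested genes at CT12 and 11.5% over both times. It had 7.34, 7.0 and 6.79 RPKM in WT at CT12 and 9.62, 9.92 and 9.11 RPKM in KO at CT12. All KO libraries lay above all WT libraries at that time. The difference was 0.39 (SE 0.091, adjusted p = 0.0168) at CT12 and 0.32 (adjusted p = 0.00727) over both times. The list medians were 0.11 at CT12 and 0.056 over both times, beside 0.080 and 0.043 over all tested genes.

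Of 23 silencing effectors, the Argonautes and the proteins that act after them, all were tested. At CT12 and over both times 1 was higher in KO and none lower, or 4.35% of the list beside 10.5% and 11.5% of all tested genes. Mov10, an RNA helicase that associates with Argonaute, had 5.86 ± 0.60 RPKM in WT and 9.40 ± 0.90 in KO at CT12 (SD, n = 3), a difference of 0.60 (SE 0.12, adjusted p = 0.00580). At CT12 the summed stellate markers were at 87.8 to 102 RPKM in WT and 111 to 142 in KO. The erythroid markers were at 46.1 to 108 and 145 to 185, and the hepatocyte markers at 36949 to 45401 and 24768 to 28377. None of these sums overlapped between genotypes, while the Kupffer cell, endothelial, lymphocyte and cholangiocyte sums did. The part of the markers in the Mov10 and Prkra differences was not tested. Between times in WT 2 silencing effectors were called, or 8.70% beside 11.6% of all tested genes. Ddx6, a helicase of mRNA decay, rose by 0.33 (adjusted p = 0.0296) and Cnot8, a deadenylase subunit, fell by 0.47 (adjusted p = 0.0150). Over both genotypes 3 rose and 1 fell, or 17.4% of the list, close to the 16.6% of all tested genes. The risers were Eif2c3, the older symbol of the Argonaute gene Ago3 (0.49, adjusted p = 0.0265), Ddx6 (0.30, adjusted p = 0.00626) and Pabpc1, which was named after its values were seen. The list median was 0.023 beside -0.034 over all tested genes.

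33 other genes whose symbols start with Ddx were tested beside Ddx5 and Ddx17, a list set by symbol and not by helicase motif. In WT 2 rose between times and none fell, or 6.06% of the list beside 11.6% of all tested genes. They were Ddx46, a splicing helicase, by 0.40 (adjusted p = 0.0159) and Ddx6, which is also among the silencing effectors. Over both genotypes 4 rose and 2 fell, or 18.2% of the list, close to the 16.6% of all tested genes, with a list median of 0.018. Ddx58, which encodes the RNA sensor RIG-I, fell by 0.42 (adjusted p = 0.0134) and Ddx60, which is linked to that sensor, fell by 0.45 (adjusted p = 0.0121). The other risers, Ddx21 and Ddx3x, and Ddx52, the 1 gene higher in KO at CT12, were named after their values were seen. Ddx52 alone is 3.03% of the list, beside 10.5% of all tested genes called between genotypes at CT12. No gene of the 3 lists was called by limma between genotypes at CT0, between times in KO or in the interaction. Of all tested genes 1.86%, 2.43% and 1.49% were called there, in this order, which in lists this short is few or none. At an unadjusted p under 0.05, genotype at CT0 gave 2 of 20 processing partners, 1 of 23 silencing effectors and 2 of 33 Ddx genes. The share of all tested genes was 14.2%. Time in KO gave 1, 3 and 12 in the same order, beside 19.9%. The interaction gave 0, 1 and 3, beside 12.3%.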

How the data were processed

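RNA sequencing of 12 mouse liver libraries (Trizol total RNA, Illumina TruSeq RNA Sample Prep Kit v2) was used, 3 per genotype (WT, KO) and circadian time (CT0, CT12), grouped by sample title. The authors deposited RPKM values per Ensembl transcript with gene symbols. Their processing notes name TopHat2, bedtools 2.19.1 and mm9. Counting rules are not given in the sources used here. The values are not counts, so no count test was made. Depth was recovered from the steps of low values with GENCODE vM1 lengths, and 95.5% to 96.2% of low values lay on a step.

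For each symbol the transcript with the highest mean RPKM was kept, and a gene was tested where 1 group or more had a mean of 1 RPKM or above. log2(RPKM + 1), which understates changes of low genes, was fitted with limma 3.58.1 (R 4.3.3) as 4 group means, with a trend in the prior variance, with Benjamini-Hochberg adjustment over all tested genes (threshold 0.05, two-sided). All 4 groups share 1 estimate of the spread, and comparisons of 1 genotype or time share libraries with the others. The RPKM ratio of partner genes was compared by exact permutation within the other factor. Alternatives were a pseudocount of 0.1, other filters, quantile normalization, median centring, summed or all transcripts, the replicate number as a block, no variance trend, only the 6 libraries compared, and omission of each library.

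The members and lists were chosen with earlier results of these data known. Named were the 7 members, up to 4 genes with the smallest adjusted p under 0.05 in any comparison from each list, the 3 genes most correlated with each called member, and Arntl. Genes named outside this rule are marked. RefSeq sequences (GRCm38.p6) were matched by letters to NCBIM37, with promoter windows for all 7 members. Python 3.11.15, pandas 2.3.3, scipy 1.17.1 and matplotlib 3.10.9 were used.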

Additional observations from a re-analysis of the deposited data

How the results depend on the processing

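Of 1057 values of member differences under alternatives, 1009 kept direction and side of the threshold, 4 newly passed, none lost its call and 44 changed sign. Many alternatives cannot move a difference but only its p-value, so kept direction was fixed in advance there. These are the other filters, the replicate block, no variance trend, all transcripts, only the 6 libraries compared, and omission of libraries not compared. Both Ddx17 calls held under every alternative run, between -0.74 and -0.60 in WT and between -0.48 and -0.41 over both genotypes. The number of members called was 1 for KO against WT at CT12 when WT CT12 replicate 1 was left out (0 to 1 over omissions), through Xpo5. It was 2 for CT12 against CT0 in WT under quantile normalization and under median centring, and 2 over both genotypes under quantile normalization (Ddx5 at 0.16, adjusted p = 0.0495), with Ddx5 added each time. The share of all tested genes called under each alternative is not given here, so these counts cannot be set against a background. The largest shift that a scaling gave the median of all genes was from 0.080 to -0.0012, in KO against WT at CT12. The cause was not tested.

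Omission of 1 library moved the log2 ratio of Drosha to Dgcr8 between times from -0.43 to -0.29, that of Ddx5 to Ddx17 between times from 0.54 to 0.64 and between genotypes from -0.090 to 0.019, and that of Dicer1 to Tarbp2 between genotypes from -0.24 to 0.040 and between times from 0.18 to 0.45. The ratio of Ddx5 to Ddx17 between times passed without KO CT0 replicate 1 (0.63) and without KO CT12 replicate 1 (0.58), both by exact permutation. Summed transcripts gave 0.60.

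Changes of sign were all in differences that did not pass. Under median centring Drosha was at -0.0054 for genotype at CT0, -0.0097 at CT12, -0.0075 over both times and -0.0043 for the interaction, Ddx5 at -0.0020 for time in KO and -0.042 for genotype over both times, and Ddx17 at -0.015 for the latter. Under quantile normalization Drosha was at -0.026 for genotype at CT12, -0.010 over both times and -0.031 for the interaction, Dicer1 at -0.0044 for the interaction, and for genotype over both times Ddx5 was at -0.052 and Ddx17 at -0.024. Summed transcripts put Ddx5 at -0.011 there. Omissions ranged as follows. For genotype at CT0, Drosha ran from -0.061 to 0.077, Dicer1 from -0.014 to 0.062, Xpo5 from -0.086 to 0.042 and Tarbp2 from -0.059 to 0.18. For genotype over both times, Ddx5 ran from -0.017 to 0.036 and Ddx17 from -0.0012 to 0.069. For the interaction, Drosha ran from -0.0052 to 0.14 and Dgcr8 from -0.063 to 0.071. For time, Xpo5 in WT ran from -0.084 to 0.12, and in KO Tarbp2 ran from -0.19 to 0.13 and Ddx5 from -0.016 to 0.040.

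Replicate numbers are shared by the groups but did not pair the libraries. Deviations from the group means correlated at a mean of 0.0083 over 18 pairs of the same number (-0.067 to 0.14) and -0.0041 over 36 pairs of different numbers. With a replicate block in the fit, the number of members called stayed at 1 for time in WT and 1 over both genotypes. This block is balanced, so it cannot change the size of the ratio differences, only their p-values. For Ddx5 to Ddx17 and Drosha to Dgcr8 between times, signs of the differences between libraries of the same number were flipped in all ways. This exact sign-flip permutation test gave p = 0.03125 and 0.0625 (adjusted p = 0.1875 for both). The smallest p that the 64 arrangements allow is 0.03125.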
